A study of Oryza sativa with 6 samples.

Results

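Heat stress transcription factors (HSFs) and the small heat shock proteins they control were examined as 1 group of 40 rice loci: 24 HSF loci, and 16 loci made up of 15 small heat shock proteins and HSP101. The loci were chosen by gene family and not by a cutoff on any measured value, but with earlier results of these data known. They were looked up in a deposited list that assigns 29513 PIF4-GFP peaks to 24592 rice loci, which named 22 of the 40 members and gave them 29 peaks.

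HSFs bind short inverted repeats in the promoters of heat-inducible genes and switch them on when proteins unfold. In plants they fall into class A, whose members activate transcription, class B, several of whose members act as repressors in Arabidopsis, and class C, which is less well understood. Small heat shock proteins hold unfolding proteins in a soluble state, and HSP101 is a disaggregase that pulls aggregated proteins apart and is needed for acquired heat tolerance. PIF4 is a basic helix-loop-helix factor that acts downstream of the phytochromes and is central to growth responses to warmth in Arabidopsis.

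The PIF4-GFP group was titled as a PIF4 overexpression line and held 3 libraries. The GFP group was titled as a mock and also held 3. All plants were rice, 3 weeks old, grown in pots in fluctuating light together with drought, and leaves were taken. The sources used here do not give the promoter that drives either transgene, the number of transformation events or the number of plants behind a library. P-values therefore reflect the spread among these libraries alone, which may be technical. The labels of the libraries describe total RNA, although the series is one of chromatin immunoprecipitation. The series asks where PIF4 is bound in the genome, and peaks are given for PIF4-GFP only, with none for the GFP mock to set against them.

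All peaks are named after PIF4-GFP1, and the sources do not say whether 1 library or several stand behind them. The list gives no score or fold for a peak, so a peak is described by its presence, class, width and place, and no value of a peak has a replicate error. Every count of loci below is a count over a fixed list, without a test. The FPKM values imply totals of 16247094 to 17919095 reads in PIF4-GFP and 14933740 to 15324492 reads in the GFP mock. These totals were inferred from the values and rest on an assumed common factor of the row lengths, so their absolute size is uncertain. The row described as similar to PIF4 had 7.46, 6.86 and 7.85 FPKM in the PIF4-GFP libraries, against 8.021, 8.002 and 7.998 FPKM in the GFP mock, so this row was not higher in the overexpression line. The lengths behind the FPKM values do not follow the genes that label the rows, as described with the FPKM values, and for that reason neither PIF4 nor the leaf tissue could be checked in them.

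By the list's own assignment of peaks, a larger share of HSF loci than of small heat shock protein and HSP101 loci had a promoter peak, and each share was below that of the genes in the FPKM tables. For the HSFs with a position in the tables this direction turned when covered starts were counted: a listed peak of any locus covered 17 of 21 (81%), against 66.9% of the table genes. That count was chosen after the peaks had been seen. With own promoter peaks counted as well, these 21 stayed at 17 (81%), against 78.8% of the table genes. Of all 24 HSFs 18 qualified, but the 24 include loci without a position, whose starts could not be checked. A promoter peak was assigned to 13 of the 24 HSF loci (54.2%), against 6 of the 16 small heat shock protein and HSP101 loci (37.5%). Among the 1177 genes of the FPKM tables, most of them regulators, 71.8% had a promoter peak under the same rule. None of the 16 small heat shock protein and HSP101 loci is among these genes, so the share is not matched to that group. Counting peaks of every class, the numbers were 14 of 24 HSF loci (58.3%) and 8 of 16 small heat shock protein and HSP101 loci (50%), against 77.4% of the table genes. Asking for a promoter peak of at least 1000 bp left 10 HSF loci and 4 small heat shock protein and HSP101 loci, against 57.7% of the table genes. Asking that it span the start left 13 and 5, against 61.4%. Without HSP101, 5 of 15 small heat shock proteins (33.3%) had a promoter peak and 7 of 15 (46.7%) a peak of any class.

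**Figure D1:**
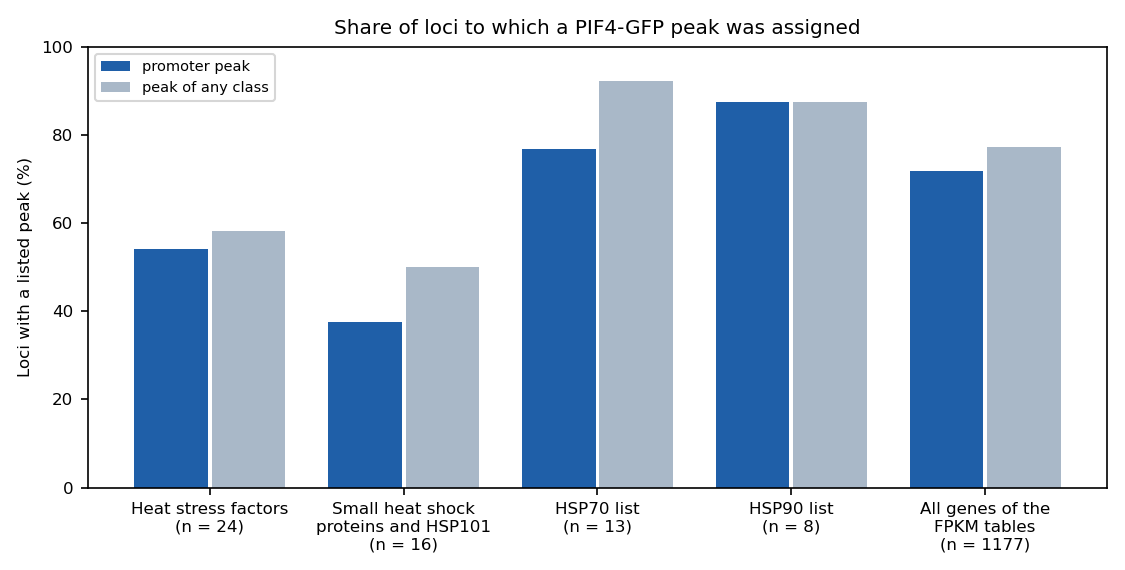
Share of loci (%, linear axis from 0) with a promoter peak (dark bars) and with a peak of any class (light bars) in the PIF4-GFP list, for the HSFs, the small heat shock proteins with HSP101, lists of HSP70 and HSP90 loci, and all genes of the FPKM tables. By this assignment both member groups lie below the 71.8% of the table genes for promoter peaks. For the 21 HSFs with a position this direction turns when covered starts are counted (81% against 66.9%), a count chosen after the peaks had been seen. The HSP70 and HSP90 lists, drawn up from general knowledge with earlier results of these data known, lie above the 71.8%.

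The other chaperones of the heat response were counted from a list of HSP70, HSP90 and ClpB loci. It was drawn up from general knowledge, with earlier results of these data known. The files and the reference pair these identifiers with no names, so they are given as counts. Of these 23 loci, 19 (82.6%) had a promoter peak and 21 (91.3%) a peak of any class: 10 of 13 in the HSP70 list, 7 of 8 in the HSP90 list and 2 of 2 in the ClpB list had one at the promoter. Exon peaks were assigned to 3 of the 40 members (7.5%), 22 of which had any peak, and to 7 of these 23 chaperone loci (30.4%). Of all listed loci, each of which has a peak, 8.72% had one in an exon. On that basis the counts were 3 of 22 members and 7 of 21 chaperone loci. The promoter peaks of the chaperone lists were narrower at the median, 1000 bp, than those of the members given below. A further HSF locus outside the 24, LOC_Os02g29340, had a promoter peak 600 bp wide.

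Of the 24 HSF loci, 20 could be given a class from RefSeq synonyms or the descriptions in the tables. Promoter peaks were found at 6 of 11 class A loci (54.5%), 3 of 6 class B loci (50%) and 2 of 3 class C loci (66.7%), and at 2 of the 4 loci without a class name. These counts are too small to rank the classes.

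Among class A factors, both HSFA4 genes had promoter peaks. HSFA4D, also known as Spl7 from a rice spotted-leaf mutant, carried one 2000 bp wide on chromosome 5, from 26344000 to 26345999 (LOC_Os05g45410). HSFA4B, whose description in the tables names cadmium tolerance and heat stress response, had a peak of 1000 bp on chromosome 1 from 31370000 to 31370999 (LOC_Os01g54550). Each of these peaks spanned the annotated start, with the centre 585 bp downstream at HSFA4D and 274 bp downstream at HSFA4B.

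In the HSFA2 branch, which in Arabidopsis amplifies and prolongs the heat response, a peak of its own was assigned only to HSFA2B among the 4 loci carrying an HSFA2 name. It was 2400 bp wide and lay on chromosome 7 from 4137600 to 4139999 (LOC_Os07g08140), with its centre at -361 bp, where negative values are upstream of the start. HSFA2A, HSFA2D and HSFA2E had no peak assigned. LOC_Os10g28340, which the tables describe only as similar to a heat shock transcription factor, had one of 1800 bp at the promoter, on chromosome 10 from 14749400 to 14751199.

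HSFA3, which in Arabidopsis acts downstream of the drought factor DREB2A, had a peak 2400 bp wide over its promoter on chromosome 2, from 19312200 to 19314599 and a narrow peak of 400 bp at its transcription end, from 19309000 to 19309399 (LOC_Os02g32590). HSFA9, a factor of seed maturation in Arabidopsis and sunflower, had the same arrangement, with 1400 bp at the promoter (chromosome 3, 6536800 to 6538199) and 2200 bp at the transcription end (6541400 to 6543599; LOC_Os03g12370). HSFA6B had 1 of the narrowest peaks of the group, 600 bp on chromosome 1 from 21938800 to 21939399 (LOC_Os01g39020), a width that 94.6% of all promoter peaks reach or exceed.

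Among class B factors, HSFB1, HSFB4B and HSFB2B carried peaks away from the promoter. HSFB1 had a promoter peak 2400 bp wide on chromosome 9, from 17219800 to 17222199 and a second peak of 1000 bp in exon 2 of 2, from 17227800 to 17228799 (LOC_Os09g28354). HSFB4B had 800 bp at the promoter on chromosome 7, from 26673200 to 26673999, and 600 bp in exon 2 of 2, from 26675800 to 26676399 (LOC_Os07g44690). The exon peaks of both lay in the last exon. HSFB2C had its promoter peak alone, 3400 bp wide on chromosome 9 from 20593600 to 20596999 (LOC_Os09g35790).

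HSFB2B (LOC_Os08g43334), a repressor of heat-inducible genes in Arabidopsis, had 3 peaks on chromosome 8 and none of them classed as promoter. They lay at the transcription end (27380000 to 27381199), in exon 5 of 7 (27382600 to 27385199) and in intron 1 of 6 (27386600 to 27387599). This class rests on the gene model. The peak list places the start of the locus at 27390340, while the FPKM tables give a gene from 27382872 to 27384470 on the same minus strand, whose start lies 5870 bp further downstream and inside the exon peak. At the other 12 members that had both a peak and a row in the tables, the starts of the list and the tables lay within 500 bp of each other.

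The widest HSF peak was that of a class C factor. HSFC2A had 4400 bp on chromosome 2 from 7461000 to 7465399 (LOC_Os02g13800), a width reached by 5.3% of all promoter peaks, with its centre at -733 bp. HSFC1A had 3000 bp on chromosome 1 from 24966600 to 24969599 (LOC_Os01g43590). LOC_Os06g35960, an HSF locus without a row in the tables, had a pair of promoter peaks of 800 bp each on chromosome 6: the peak from 20998400 to 20999199 spanned the start, and the peak from 20996600 to 20997399 was centred 1868 bp downstream, near the far end of the promoter class.

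**Figure D2:**
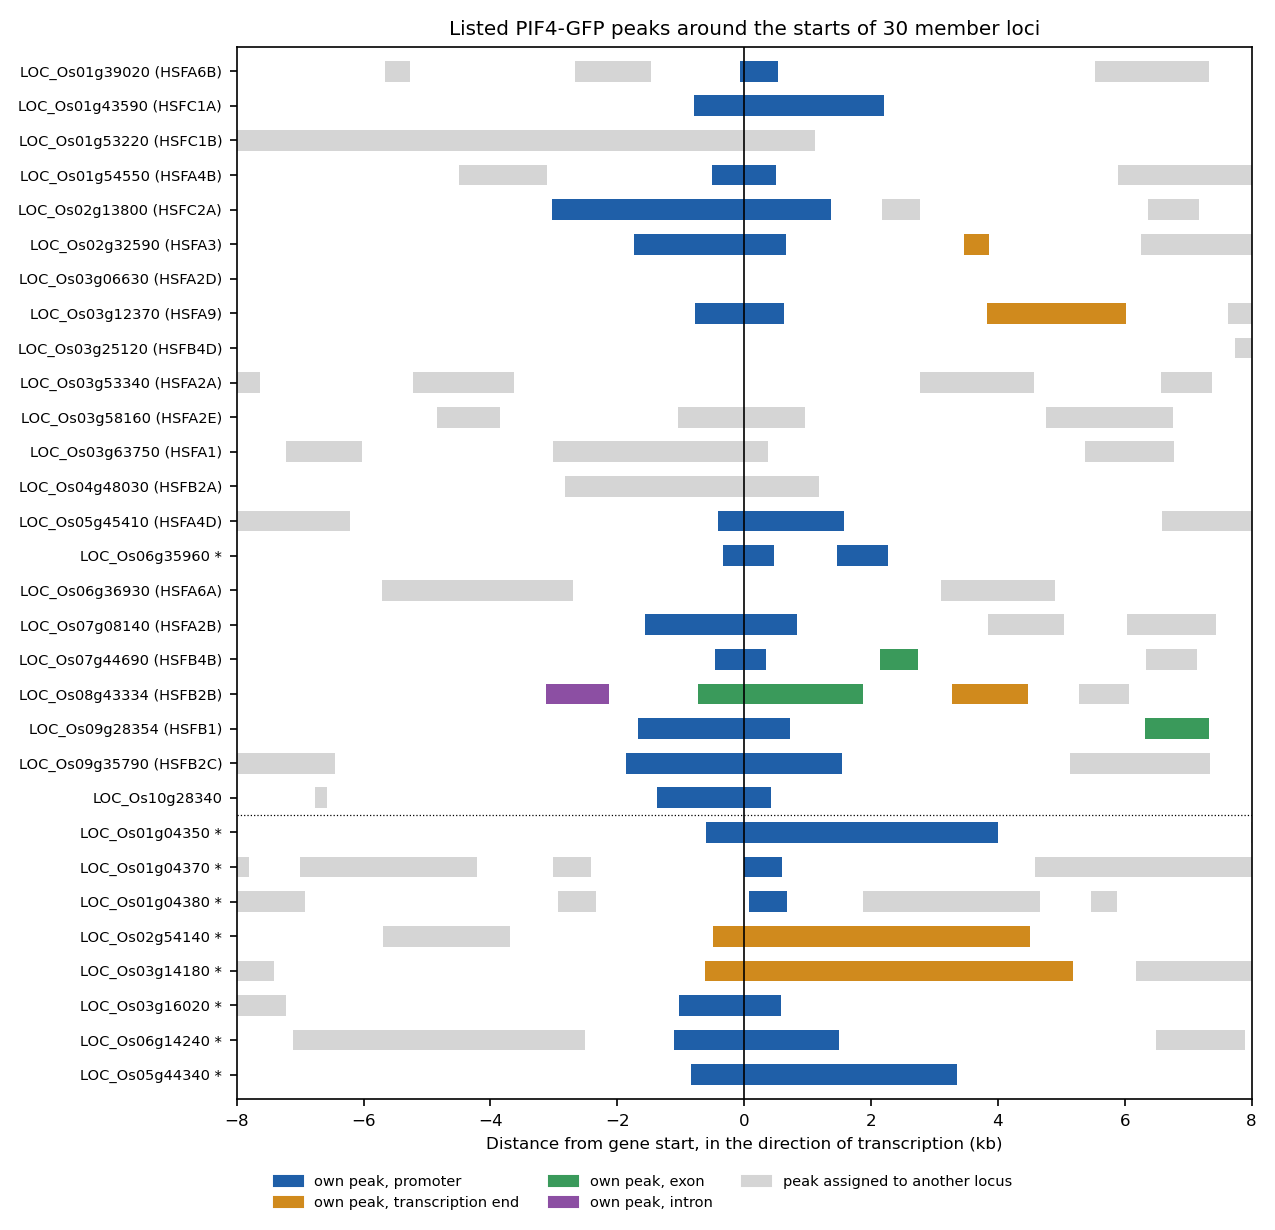
Listed peaks within 8 kb of the start of 30 members, with distance along the direction of transcription on the x axis and 1 locus per line, HSFs above the dotted line and small heat shock proteins with HSP101 below it. Bars are peaks, coloured by class where they were assigned to the locus itself and grey where they were assigned to another locus. Starts come from the FPKM tables for 21 loci and from the peak list for the 9 marked with an asterisk. At HSFC1B, HSFA2E, HSFA1 and HSFB2A a grey bar crosses the start.

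Whether an HSF counts as having a peak depended on the assignment of each peak to 1 locus. Of the 21 HSFs with a position in the tables, 8 had no peak of their own, and at 4 of these 8 the start lay under a peak that the list gives to a neighbour. Of the 266 table genes without a peak of their own, the start was covered in this way in 20.3%. HSFA1, the branch that acts as master regulator of the heat response in tomato, starts at position 35989220 of chromosome 3 (LOC_Os03g63750), within a peak of 3400 bp from 35986200 to 35989599 that is assigned to LOC_Os03g63740. That neighbour runs in the opposite direction from a start 2257 bp away.

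HSFA2E starts at 33105843 on chromosome 3 (LOC_Os03g58160), 399 bp from the start of LOC_Os03g58150, which is transcribed divergently. The peak of 2000 bp from 33104800 to 33106799 covers both starts and is given to the neighbour. HSFC1B (LOC_Os01g53220, start 30582485) lay under a peak of 11600 bp on chromosome 1 from 30572000 to 30583599, assigned to LOC_Os01g53210, whose start is 6197 bp away. HSFB2A (LOC_Os04g48030, start 28574427) lay under a peak of 4000 bp on chromosome 4 from 28571600 to 28575599, assigned to LOC_Os04g48020.

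Counted by covered starts alone, the HSFs with a position no longer fell below the table genes. The 17 of 21 HSFs whose start lay under a listed peak of any locus set the share of 81% given above. Counted by a promoter peak of their own, 12 of these 21 (57.1%) had one, against 71.8% of the table genes. The direction of the difference from the table genes thus turned with the way a peak is tied to a gene. With either a promoter peak of their own or a covered start counted, the 21 stayed at 17 (81%), against 78.8% of the table genes. Of all 24 HSFs 18 qualified by this rule. However, 3 of the 24 have no position in the tables, so their starts could not be checked and their share is not comparable. These counts by position were chosen after the peaks had been seen.

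At the remaining 4 HSFs with a position and no peak of their own, no listed peak covered the start. The nearest listed peaks to HSFA2A (LOC_Os03g53340) ended 2773 bp before and began 3628 bp after its start, in chromosome coordinates. For HSFA6A (LOC_Os06g36930) these gaps were 2705 and 3096 bp, and for HSFB4D (LOC_Os03g25120) 7744 and 13057 bp. HSFA2D (LOC_Os03g06630) was the most isolated of the 4, with 16078 bp on 1 side and 12523 bp on the other.

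Peak numbers rise along each chromosome at all 29501 neighbouring pairs of listed peaks, so gaps in the numbers show where peaks were numbered but are not in the list used here. Of all numbers up to the highest, 60035, the list holds 49.2%, so such gaps are common throughout, and what the unlisted peaks are (peaks far from any gene, for example) is not known here. There was 1 such number in the gap around each of HSFA2A, HSFA6A and HSFB4D, and 6 around HSFA2D. An unlisted peak near these genes could therefore be neither seen nor placed. The same held for LOC_Os08g36700 and LOC_Os09g28200, the HSFs with neither a peak nor a position here, where the stretches between the peaks of the neighbouring listed loci held 8 and 5 unlisted numbers.

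Among the small heat shock proteins, the tandem cluster on chromosome 1 held 3 of the 5 promoter peaks. LOC_Os01g04350 carried the widest promoter peak of all members, 4600 bp from 1940400 to 1944999, which begins at -604 bp relative to the gene's start and runs far past it, with its centre 1696 bp downstream. LOC_Os01g04370 had a peak of 600 bp from 1949000 to 1949599 and LOC_Os01g04380 a peak of 600 bp from 1952000 to 1952599. These narrow peaks lay over the beginnings of the genes: the first reached the start of LOC_Os01g04370 at 1949588, and the second began 71 bp downstream of the start of LOC_Os01g04380 at 1951929.

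LOC_Os01g04340 and LOC_Os01g04360, the other members of this cluster, had no peak assigned. Locus numbers follow position at 99.8% of neighbouring listed loci, which would place LOC_Os01g04360 between LOC_Os01g04350 and LOC_Os01g04370. The peaks of these neighbours have consecutive numbers, 326 and 327, and 4000 bp lie between them. Between the peak of LOC_Os01g04350 and that of LOC_Os01g04320 on the other side, where LOC_Os01g04340 would lie, 3 numbers are not in the list.

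**Figure D3:**
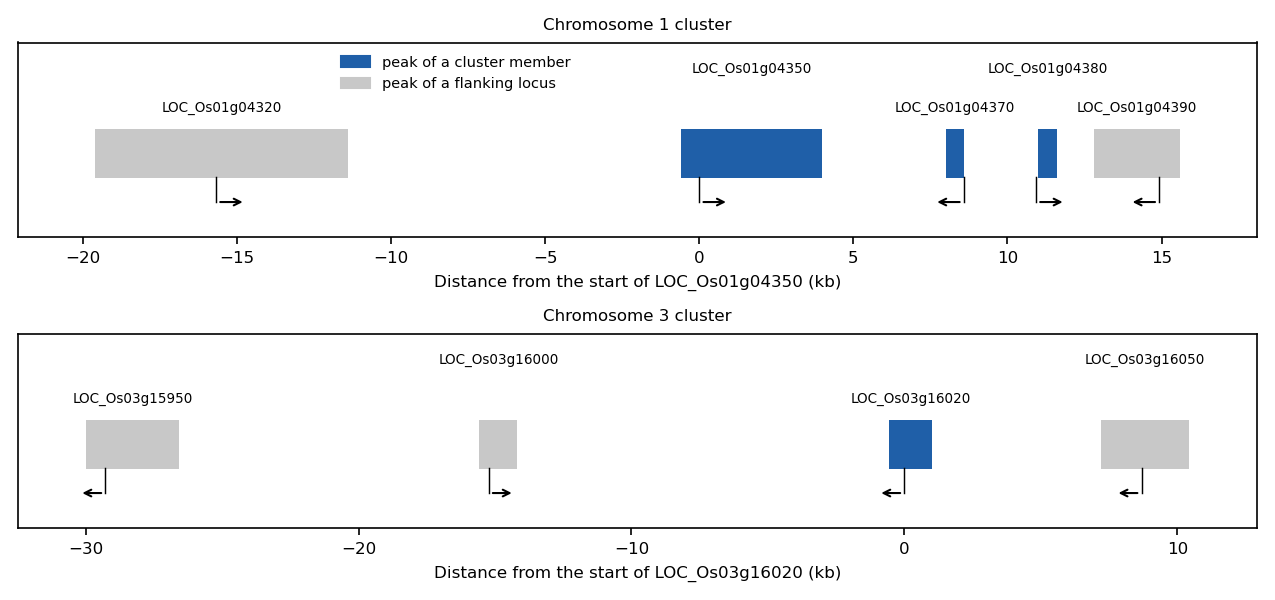
Listed peaks in and around the tandem small heat shock protein clusters of chromosomes 1 and 3, with distance from the start of a member on the x axis in kb. Blue bars are peaks of cluster members, grey bars peaks of flanking loci, and arrows mark the starts of the genes the peaks are assigned to, with their direction. On chromosome 1 a peak of 4600 bp is followed by 2 of 600 bp, and on chromosome 3 the cluster has 1 peak of 1600 bp.

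In the cluster on chromosome 3, 1 of 4 loci had a peak. It lay at LOC_Os03g16020, was 1600 bp wide (8833800 to 8835399) and was centred 222 bp upstream of the start, the only promoter peak of the small heat shock proteins and HSP101 centred upstream. LOC_Os03g16030 and LOC_Os03g16040 would lie, by locus number, in the 6200 bp up to the next listed peak, a stretch with 2 unlisted numbers, 15097 and 15098. LOC_Os03g15960 would lie between LOC_Os03g15950 and LOC_Os03g16000, whose peaks have consecutive numbers and are 11000 bp apart. Reads from near-identical tandem copies can be shared between them, and the sources used here do not say how such reads were placed, so the presence or absence of a peak at a single copy is uncertain.

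Outside the clusters, 3 of 6 small heat shock proteins had a peak and only 1 of these was classed as promoter: LOC_Os06g14240 on chromosome 6, 2600 bp from 7940200 to 7942799, centred 193 bp downstream of the start. LOC_Os02g54140 had a peak 5000 bp wide on chromosome 2, from 33179000 to 33183999, and LOC_Os03g14180 a peak of 5800 bp on chromosome 3 from 7696400 to 7702199. Each of these was classed as transcription end, and each also spanned the gene's start, which the list's distances place at 33179487 and 7697016. They were the widest peaks of all members, of widths that 3.5% and 2.2% of promoter peaks reach.

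With a peak of any class that spans the start counted, 7 of the 16 small heat shock protein and HSP101 loci (43.8%) had one, against 62.4% of the table genes. LOC_Os01g08860, LOC_Os02g48140 and LOC_Os02g52150 had no peak assigned. At LOC_Os02g48140 and LOC_Os02g52150 the neighbouring listed loci have consecutive peak numbers, with 2200 and 1800 bp between their peaks. At LOC_Os01g08860 that stretch was 11400 bp and held 2 unlisted numbers.

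HSP101 (LOC_Os05g44340) had 1 promoter peak, 4200 bp on chromosome 5 from 25803800 to 25807999. It spanned the start at 25807161 and extended mostly over the gene, with its centre 1261 bp downstream. Of all promoter peaks, 6.1% reach this width.

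Promoter peaks of the 2 member groups differed little in median width and were spread over nearly the same range. Those of the HSFs had a median of 1900 bp (600 to 4400 bp, 14 peaks), and those of the small heat shock proteins and HSP101 a median of 2100 bp (600 to 4600 bp, 6 peaks), against a median of 1400 bp (quartiles 800 and 2200 bp) over all 23278 promoter peaks. The difference of 200 bp between the groups is 1 step of the 200 bp grid on which all but 1 of the listed widths lie. With the tandem clusters left out, the HSF median minus that of the others was -1500 bp, but the others then had only 2 promoter peaks, of 2600 and 4200 bp. Peaks of 2000 bp or more made up 7 of 14 in HSFs and 3 of 6 in small heat shock proteins and HSP101, against 33.3% of all promoter peaks. Peaks under 1000 bp were 4 of 14 and 2 of 6, against 27.2%.

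Promoter peaks were centred upstream of the start at 8 of 14 HSF peaks (57.1%) and at 1 of 6 of the small heat shock proteins and HSP101 (16.7%), against 30.7% of all promoter peaks. Their centres lay at a median of -55 bp in HSFs and 329.5 bp in small heat shock proteins and HSP101, against 198 bp over all promoter peaks, where positive values are downstream. Of the HSF loci with a peak, 6 of 14 (42.9%) had 2 or more, against 0 of 8 small heat shock protein and HSP101 loci and 17.7% of all listed loci.

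Of the 21 HSF peaks, 14 (66.7%) were classed as promoter, 3 as transcription end, 3 as exon and 1 as intron. Of the 8 peaks of the small heat shock proteins and HSP101, 6 (75%) were promoter and 2 transcription end. The gap between these promoter shares is less than 1 of the 8 peaks. Over the whole list 78.9% were promoter and 8.27% transcription end. With peaks of every class counted, the median width was 1400 bp in HSFs and 3400 bp in small heat shock proteins and HSP101, since the other HSF peaks were mostly narrow and the transcription end peaks of the small heat shock proteins were the widest of all.

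**Figure D4:**
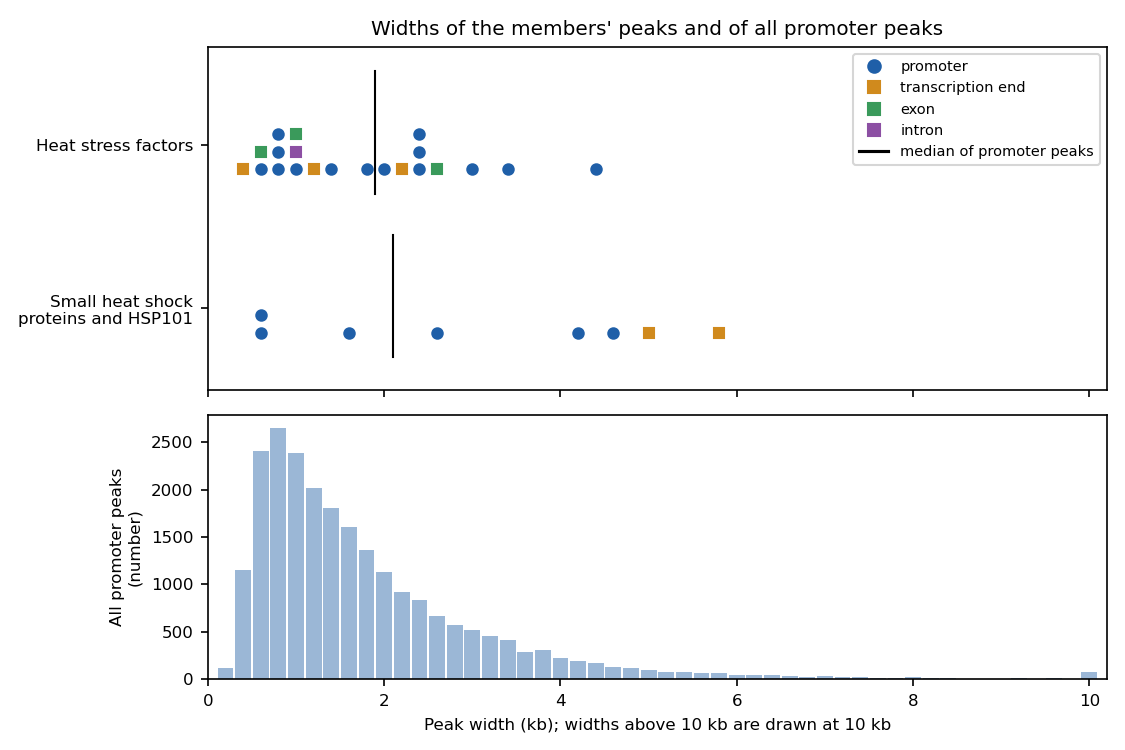
Widths of the members' peaks in kb (top, 1 symbol per peak, circles for promoter peaks and squares for other classes, stacked where widths are equal, vertical lines at the median of the promoter peaks) above the number of all promoter peaks of each width (bottom). The medians of 1900 bp in HSFs and 2100 bp in small heat shock proteins and HSP101 lie close together, while the transcription end peaks of 5000 and 5800 bp stand to the right.

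Transcript levels of the HSFs were looked up in the FPKM tables, which have rows labelled with 21 HSF loci and with no small heat shock protein. The labels could not be tied to the values. Each of the 16 rows with values in at least 4 libraries resolved into whole reads over 1 whole length, as did 917 rows of the tables in all. For each row the smallest whole reads and length that fitted were taken, and a larger multiple of both would fit as well. These lengths are also fixed only up to a common factor, which was set by taking them as multiples of 3, as coding lengths are. With that factor the lengths of the 16 rows ran from 204 bp at the row labelled HSFA2D to 6369 bp at the row labelled HSFA2A. In 3 of the 16 rows the length exceeded the whole span of the labelled gene, as it did in 191 of 917 rows of the tables (20.8%). These counts rest on the same factor and on the smallest fit of each row. Across the 917 rows the log lengths and log spans had a Pearson r of 0.023. The common factor does not change it, although larger multiples in single rows would. It is given as a description, since rows are not independent. The values that follow are thus those of rows that carry HSF labels, and levels of different rows are not compared.

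No row labelled as an HSF passed the test between PIF4-GFP and the GFP mock. The limma fit on log2(FPKM + 1) covered 847 rows, of which 0% passed an adjusted p of 0.05. Without adjustment 33 rows had p under 0.05, and none of these was among the 14 HSF rows tested. By voom on the recovered reads 0 rows passed as well. The smallest limma adjusted p of an HSF row was 0.895. The PIF4-GFP and mock values overlapped in all 14, against 7.91% of all rows that lay wholly lower and 1.18% wholly higher in PIF4-GFP. An exact permutation test of 3 against 3 libraries cannot give a p below 0.1.

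The row labelled HSFA2D had 204, 190 and 219 FPKM in PIF4-GFP and 217, 210 and 222 FPKM in the GFP mock, differing by -0.08 on the log2 scale (SE 0.08; adjusted p = 0.895 by limma). The row labelled HSFA4D had 113, 112 and 117 FPKM in PIF4-GFP, against 122, 113 and 114 FPKM in the mock. The row labelled HSFA1 had 87.4, 87.3 and 91.6 FPKM in PIF4-GFP and 99.5, 90.1 and 96.4 FPKM in the mock, differing by -0.10 on the log2 scale (SE 0.07; adjusted p = 0.895 by limma). In each of these rows the ranges of the groups overlapped.

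The row labelled HSFB2A had 39.6, 43.1 and 42.6 FPKM in PIF4-GFP and 42.3, 42.3 and 47.8 FPKM in the mock. The row labelled HSFC1A had 36.6, 36.1 and 40.1 FPKM in PIF4-GFP and 38.8, 36.2 and 40.7 FPKM in the mock. Lower rows were no more distinct. The row labelled HSFB2C had 5.64, 5.99 and 7.14 FPKM in PIF4-GFP, where the third library was above every mock value, against 6.83, 6.83 and 7.07 FPKM in the mock.

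The row labelled HSFA9 had 1.14, 0.867 and 0.977 FPKM in PIF4-GFP and 1.40, 1.10 and 1.24 FPKM in the mock, differing by -0.17 on the log2 scale (SE 0.16; adjusted p = 0.895 by limma). For this low row the difference was -0.30 with a pseudocount of 0.1, -0.33 by voom and -0.093 after centring. The row labelled HSFA3 had 30.4, 29.1 and 35.2 FPKM in PIF4-GFP and 34.0, 31.2 and 35.7 FPKM in the mock. The other tested rows had log2 differences between -0.18 and 0.01. Of the 7 rows not tested, 4 are listed at 0 in every library and the highest value among the others was 1.74 FPKM, in 1 PIF4-GFP library of the row labelled HSFB4D.

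The HSF rows shared the general tilt of the tables. In 13 of 14 the mean was lower in PIF4-GFP, as it was in 79.5% of all 847 rows. With the median log2 value of every library set equal, 8 of 14 HSF rows were lower, against 42.7% of all rows. The median log2 difference was -0.09 in the HSF rows and -0.06 in all rows before centring, and -0.0084 in the HSF rows and 0.016 in all rows after it. Leaving out single libraries moved the HSF median between -0.14 (without GFP mock replicate 2) and -0.036 (without PIF4-GFP replicate 2). The rows whose labelled locus had a promoter peak had a median log2 difference of -0.11 (9 rows), and those without one -0.08 (5 rows). Since the labels could not be tied to the values, these medians do not relate peaks to transcript levels.

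**Figure D5:**
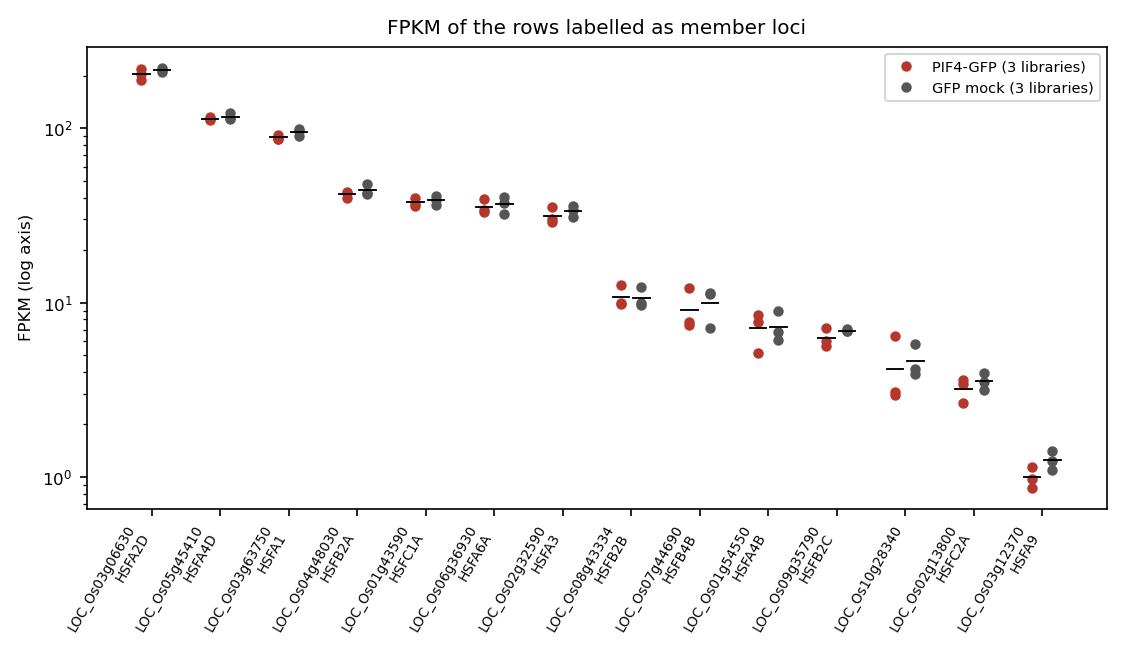
FPKM on a log axis of the 14 tested rows labelled as HSF loci, with 1 point per library for PIF4-GFP (red, left) and GFP mock (grey, right) and the mean of each group as a black line. The groups overlap in every row, and the labels on the x axis are those of the rows, which the lengths behind the values do not follow.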

How the data were processed

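The members and lists were chosen with earlier results of these data known. Peaks were called and each assigned to 1 locus, class and distance by the authors; the deposited list gives no score. The submitters' processing notes list, with no role, StringTie 1.3.0, HISAT2 2.0 and Bowtie 0.12.2, and the mouse build mm8, while the loci are rice. The sources used here do not give the rice build, the peak caller or its threshold. Coordinates count from 1, as the deposited list gives them. Gene starts were computed from the list's distances and read from the tables. HSF names came from RefSeq synonyms (assembly ASM3414082v1) for 18 loci, matched by the gene identifiers in the tables (19 of 21 found), and from table descriptions for 2. Sequences were not used here.

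The deposited tables hold 1 FPKM value per gene and library, a unit read from the values. Reads were recovered as the smallest whole numbers that fitted each row (tolerance 0.0001), with lengths taken as multiples of 3. Groups were compared by limma 3.58.1 in R 4.3.3, fitted with its trend option to log2(FPKM + 1). Rows needed 1 FPKM or more in 3 libraries. Tests were two-sided, with Benjamini-Hochberg adjustment over all rows tested; a fold on this scale understates changes of low rows. The fit and the read recovery were tested on simulated data, the latter with lengths drawn under the same assumed factor. Alternatives were a peak of any class, a width of at least 1000 bp, peaks spanning the start, clusters or HSP101 left out, another pseudocount, no filter, centring, a replicate block and each library left out; counting neighbours' peaks, any-class peaks spanning the start, and voom were added after the data were seen. Members were named by a rule covering all 40, with positions for every member that has a peak; rows were the 5 highest and the 5 with the smallest p. Python 3.11.15, pandas 2.3.3, scipy 1.17.1 and matplotlib 3.10.9 were used.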

Additional observations from a re-analysis of the deposited data

How the results depend on the processing

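Small heat shock protein and HSP101 loci numbered 8 with a peak of any class and 4 with a promoter peak of at least 1000 bp, in place of 6. HSF loci numbered 14 with a peak of any class, in place of 13, and 10 with promoter peaks of at least 1000 bp. They numbered 18 of 24 when the start could lie under any listed peak. Of the 21 HSFs with a position, 17 (81%) met that rule, against 78.8% of the table genes. Without the tandem clusters, 2 of 7 small heat shock protein and HSP101 loci had a promoter peak. The median width of HSF peaks minus that of small heat shock protein and HSP101 peaks was -2000 bp with peaks of every class and -1500 bp without the clusters, in place of -200 bp. The number of FPKM rows passing ran from 0 to 2 when single libraries were left out (2 without PIF4-GFP replicate 2, none an HSF row) and was 1 with the replicate block. Correlations of deviations from the group means were 0.111, 0.156 and -0.088 for same-numbered libraries, and not every library correlated best with its own number. Within a group these deviations are tied to one another, so they cannot settle whether replicate numbers pair the libraries. The cause of the changes in these counts and medians was not tested. No HSF row passed in 11 limma fits, these alternatives and the one reported, and the smallest adjusted p of an HSF row was 0.345. Centring turned the log2 differences of the rows labelled LOC_Os05g45410 (0.049), LOC_Os04g48030 (0.0044) and LOC_Os01g43590 (0.044) positive. Leaving out single libraries gave -0.05 to 0.0025 for LOC_Os05g45410, positive without GFP mock replicate 1, and -0.081 to 0.0035 for LOC_Os01g43590, positive without GFP mock replicate 3. The list gives no depth or score, so a peak that was not listed cannot be told from one that fell below the caller's threshold.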
